A study of Mus musculus with 10 samples.

Results

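The heat shock and stress chaperone genes are a list of 37 genes that encode the proteins which fold, hold and refold other proteins, together with the factors that switch those genes on under stress. Their transcripts were compared in the hippocampus of Ts65Dn mice and of control littermates. Of the 37 genes, 34 had a row under their own symbol among the 19938 genes of the value table. Hspa1b was found only on a row that it shares with its near-identical neighbour Hspa1a, and Hsp90ab1 and Hsf1 were not analysed here. The 34 genes comprised 21 of the cytosolic heat shock system (6 of the Hsp70 and Hsp110 families, 5 for Hsp90 and its cochaperones, 6 J proteins, 3 BAG cochaperones and 1 heat shock factor), 4 small heat shock proteins, 6 genes of the endoplasmic reticulum and 3 of the mitochondria. Where a gene had several rows, the one with the highest mean was used.

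The samples came from 10 males, 16 weeks old: 5 Ts65Dn mice (genotype Mut in the labels) and 5 control littermates (genotype WT), all on an F1 hybrid B6C3B background and all untreated as far as the labels say. Both hippocampi of a mouse gave 1 RNA, hybridised to 1 Affymetrix Mouse Gene 1.0 ST array. Ts65Dn is a Down syndrome model in which an extra minichromosome carries the end of mouse chromosome 16 and the centromeric part of mouse chromosome 17, the latter with genes that have no counterpart on human chromosome 21. In the GRCm38 assembly the extra segments ran from position 84718281 to 97962627 of chromosome 16 and from 3064318 to 8986648 of chromosome 17, and 0 of the 37 genes lay in either. Hspa1a at chr17:34969359-34972156, Hspa1b and Hsp90ab1 are on chromosome 17 but beyond the end of the extra segment, so by this map no member was among the genes in 3 copies.

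Cells hold chaperones in several compartments. In the cytosol, Hsp70 proteins bind exposed stretches of unfolded proteins in cycles driven by ATP, J proteins deliver the clients and start ATP hydrolysis, nucleotide exchange factors (the BAG and Hsp110 proteins) let the clients go, and Hsp90 finishes the folding of kinases and receptors. Small heat shock proteins bind unfolding proteins without ATP, and heat shock factors bind inverted repeats of the unit GAA in promoters and raise many of these genes together when proteins misfold. The endoplasmic reticulum has its own Hsp70 and Hsp90 proteins, which are raised by the unfolded protein response, and mitochondria have another set with a bacterial type of chaperonin.

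Promoters of some of these genes hold the letters known from both routes, and a few stretches are printed here because the differences between genotypes are later given for genes with and without them. The sequences are from RefSeq on GRCm38.p6, which gave promoters for 31 of the 37 genes, and the 250 bases before each start were searched on both strands. Capitals mark the pair of inverted units GAANNTTC or TTCNNGAA, which may overlap, in the heat shock genes, and in the endoplasmic reticulum genes the element in which CCAAT and CCACG are separated by 9 bases. In Hspb8 neither was found in the window. Bases are given 5′ to 3′ along the strand of the gene.
Hspa1a (chr17:34972213-34972300, minus strand): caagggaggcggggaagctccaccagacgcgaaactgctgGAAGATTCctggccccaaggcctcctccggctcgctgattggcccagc
Hspb1 (chr5:135887762-135887869, plus strand): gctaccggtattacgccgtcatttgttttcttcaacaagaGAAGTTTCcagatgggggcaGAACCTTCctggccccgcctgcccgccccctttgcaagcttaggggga
Hsph1 (chr5:149636322-149636409, minus strand): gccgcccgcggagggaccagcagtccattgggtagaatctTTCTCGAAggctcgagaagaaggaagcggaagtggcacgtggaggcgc
Hspe1 (chr1:55088019-55088116, plus strand): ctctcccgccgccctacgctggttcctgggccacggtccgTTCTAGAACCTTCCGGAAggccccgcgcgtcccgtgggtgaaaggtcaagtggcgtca
Hspa5 (chr2:34771985-34772083, plus strand): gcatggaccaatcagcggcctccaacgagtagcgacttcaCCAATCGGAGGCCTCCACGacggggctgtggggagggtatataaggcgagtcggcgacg
Hsp90b1 (chr10:86705493-86705694, minus strand): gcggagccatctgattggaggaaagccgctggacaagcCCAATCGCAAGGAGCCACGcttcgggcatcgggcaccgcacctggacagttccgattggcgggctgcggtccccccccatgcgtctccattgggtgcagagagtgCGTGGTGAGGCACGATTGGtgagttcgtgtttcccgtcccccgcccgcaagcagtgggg
Calr (chr8:84847035-84847133, minus strand): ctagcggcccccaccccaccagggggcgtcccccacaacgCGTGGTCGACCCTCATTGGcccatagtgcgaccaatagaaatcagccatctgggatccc
Hspb8 (chr5:116422865-116423014, minus strand): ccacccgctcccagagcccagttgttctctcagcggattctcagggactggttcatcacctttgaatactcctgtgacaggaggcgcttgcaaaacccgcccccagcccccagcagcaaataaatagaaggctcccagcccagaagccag

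An inverted pair was present in 10 of the 31 genes (32.3%), against 14.5% of the 27025 genes with a promoter in the table. The 10 were Hspa1a, Hspa1b, Hsph1, Hspb1, Hspb6, Dnaja1, Dnajb4, Fkbp4, Hspd1 and Hspe1. Over the 250 bases, Hspa1a and Hspa1b were the same at 247 positions. Hspd1 and Hspe1, which encode the mitochondrial chaperonin and its lid, start from a shared promoter in opposite directions and hold the same run of 18 bases, each reading it on its own strand. They were the only 2 of the 31 genes with 3 alternating units in a row, a match that 0.514% of all genes had. The endoplasmic reticulum element was present in Hspa5, Hsp90b1 and Calr (9.68% of the 31 genes, against 0.13% of all genes), and Hsp90b1 held it on both strands. A match of letters is a description of the window and no evidence that a factor binds there.

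None of the 34 measured chaperone genes differed between Ts65Dn and control hippocampi at an adjusted p of 0.05. The largest difference was that of Hspb8, a small heat shock protein that works with Bag3 in clearing misfolded proteins, which was 1.35-fold higher in Ts65Dn (95% interval 1.06 to 1.73) without passing the adjustment over all rows. Most of the other genes leaned the same way by a few percent: 28 of 34 (82.4%) had a higher mean in Ts65Dn, with a median log2 difference of 0.05. Over all 19938 genes 47.6% had a higher mean and the median log2 difference was -0.0028, and over the 9976 genes above the median signal, where 33 of the 34 members lie, these were 51.4% and 0.0019. The members share the same 10 arrays, so their number is not a number of independent observations.

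The counts of calls were read against those of all genes. At adjusted p 0.05, 0.276% of all genes were higher in Ts65Dn and 0.00502% lower, and 0 of 34 members were called either way. At an unadjusted p of 0.05, 1 member (2.94%) was higher and 0 were lower, against 1.76% and 1.56% of all genes. In 0 of 34 members did all Ts65Dn mice lie above or below all controls, as they did for 0.532% of all genes upwards and 0.346% downwards. The rank method, which ranks the fold changes of all genes within each of the 25 pairs of a Ts65Dn and a control mouse and is close to the one used in the study, called Hspa1a, Bag3, Hspb8 and Hspa5 as higher (11.8% of the members) and 0 as lower, against 2.9% and 2.66% of all genes. It takes no account of the spread between mice, whereas the limma fit does.

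The intervals bound the difference of each gene as read by the array on the row used, and smaller differences may have gone unseen. For 33 of 34 members the upper end of the 95% interval was below 1.5-fold, and Hspb8 was the exception. A ratio of 1.5 is that of 3 gene copies to 2. It serves as a yardstick only, since no member was among the genes in 3 copies. The standard error of the log2 difference was lowest for Ddit3 (0.03) and highest for Hspb8 (0.16). In RNA from whole tissue, fewer cells of a type and less RNA per cell cannot be told apart, here and in all that follows.

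**Figure D1:**
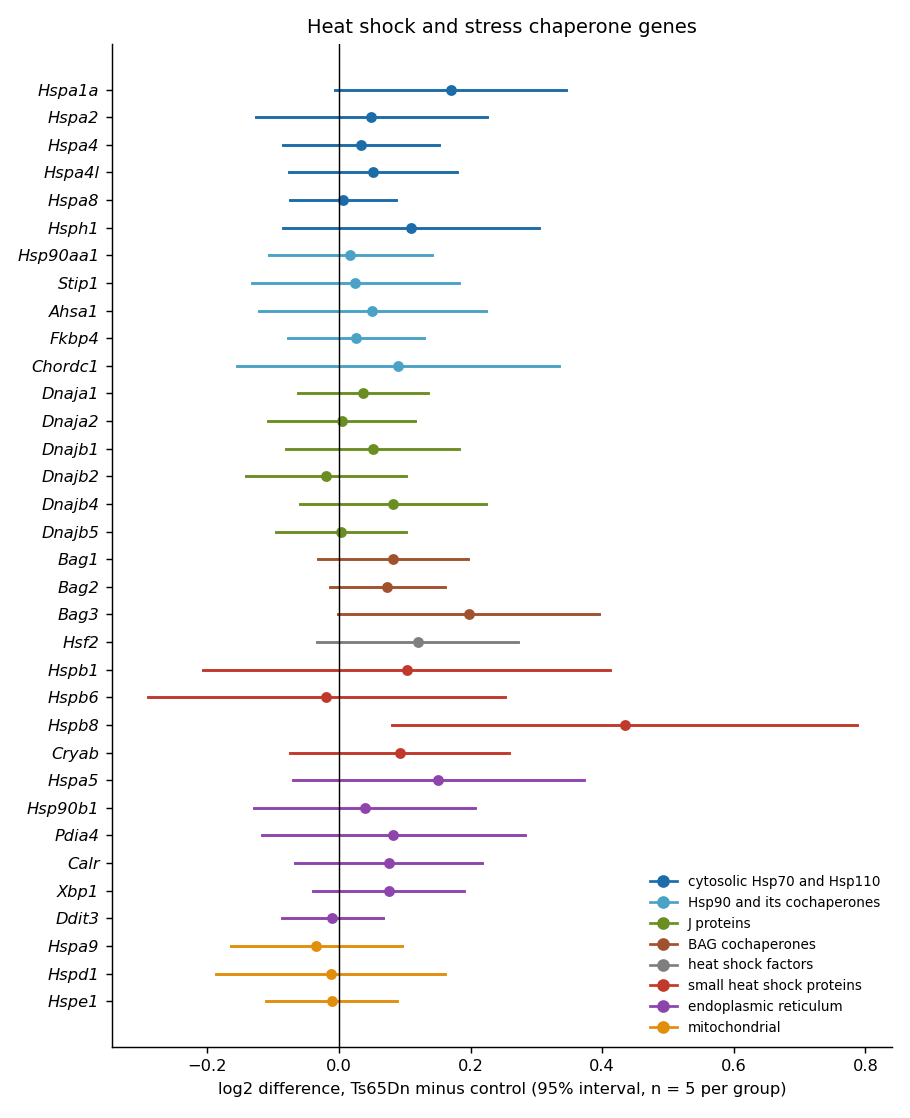
Log2 difference (Ts65Dn minus control, horizontal axis) of each of the 34 measured chaperone genes with its 95% interval from the limma fit (5 mice per genotype), coloured by role. Hspb8 has the largest difference (0.43), the 3 mitochondrial genes lie just below 0, and the interval includes 0 for every gene but Hspb8.

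Among the Hsp70 proteins of the cytosol, the stress-inducible Hspa1a had the largest difference. Its log2 signal was 8.38, 8.28, 8.30, 8.35 and 8.27 in Ts65Dn mice 1 to 5 and 8.35, 8.31, 8.08, 8.13 and 7.86 in control mice 1 to 5. The Ts65Dn mice were close together, and control mice 1 and 2 lay among them while the other 3 controls were lower, control 5 most of all. The log2 difference was 0.17 ± 0.08 (SE), and the unadjusted p of limma was 0.0566, with an adjusted p of 1. Without control mouse 5 the log2 difference was 0.10. The row that Hspa1a shares with Hspa1b gave a log2 difference of 0.17 ± 0.06 (SE; unadjusted p = 0.0181, adjusted p = 1 by limma), with control mouse 2 at 9.37 above Ts65Dn mice 1 and 2 at 9.28 and 9.32. The rank method called this shared row of Hspa1a and Hspa1b as higher, and the counts of members leave it out. Because these copies have near-identical sequences, their transcripts cannot be separated here.

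Hsph1, the Hsp110 protein that recharges Hsp70 with ATP, had log2 signals of 10.98, 10.92, 11.15, 11.35 and 10.96 in Ts65Dn mice and 10.83, 11.17, 11.01, 10.94 and 10.87 in controls. Ts65Dn mouse 4 was the highest and control mouse 2 the next, and the genotypes overlapped. The other 4 genes of the families, among them the constitutive Hspa8, had log2 differences between 0.01 and 0.05. Hspa8 was read from a row whose neighbours in identifier order belong to another chromosome than its gene. The row beside genes of its own chromosome had a log2 difference of 0.16 ± 0.17 (SE). That row had a wider spread, from 12.24 in control mouse 1 to 13.20 in control mouse 3. Rows that Hspa8 shares with Snord14c and Snord14d had a mean log2 signal of 7.87 and lower means in Ts65Dn. Their log2 differences were -0.56 ± 0.34 and -0.57 ± 0.34 (SE; unadjusted p = 0.135 and 0.12 by limma). The rank method called both as lower, and the share of each gene in their signal cannot be separated here.

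The 5 genes of the Hsp90 system had log2 differences of 0.02 to 0.09. The largest was that of Chordc1, a zinc-binding Hsp90 cochaperone, with log2 signals of 9.47, 9.52, 9.35, 9.97 and 9.53 in Ts65Dn mice and 9.27, 9.69, 9.41, 9.44 and 9.59 in controls. One mouse, Ts65Dn 4, stood above all others, and without it the log2 difference turned to -0.01. Ahsa1, which stimulates the ATPase of Hsp90, had log2 signals of 10.35, 10.33, 10.54, 10.66 and 10.37 against 10.20, 10.56, 10.43, 10.41 and 10.39. Ts65Dn mouse 4 was again the highest, followed by control mouse 2, and without Ts65Dn mouse 4 the log2 difference was -0.0022. Control mouse 2 was the highest control for all 5 genes of this group.

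Of the 6 J proteins, Dnajb4 had the largest log2 difference on the rows used, 0.08 ± 0.06 (SE). Its log2 signal was 10.25, 10.31, 10.35, 10.54 and 10.30 in Ts65Dn mice and 10.13, 10.43, 10.23, 10.28 and 10.26 in controls. Dnajb1, the main heat-inducible J protein (Hsp40), had log2 signals of 8.58, 8.63, 8.62, 8.78 and 8.71 against 8.62, 8.78, 8.65, 8.47 and 8.55. For both genes Ts65Dn mouse 4 and control mouse 2 were the top of their genotypes. The other 4 J proteins had log2 differences of -0.02 to 0.04. Dnajb2, which is enriched in neurons, was the single one of the 21 cytosolic genes with a lower mean in Ts65Dn. Dnaja1 was read from a row whose neighbours in identifier order belong to another chromosome than its gene. On the row beside genes of its own chromosome its log2 difference was 0.11 ± 0.07 (SE), larger than that of Dnajb4.

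All 3 BAG cochaperones, which release clients from Hsp70, had higher means in Ts65Dn. Bag3, the partner of Hspb8 in selective autophagy, had log2 signals of 8.30, 8.19, 8.13, 8.36 and 8.05 in Ts65Dn mice and 8.23, 8.08, 8.13, 7.83 and 7.78 in controls. Control mice 4 and 5 lay below all others, and the rest of the mice were mixed. The log2 difference was 0.20 ± 0.09 (SE), with an unadjusted p of 0.0510 and an adjusted p of 1 by limma. Bag2, the single member below the median signal, had log2 signals of 7.03, 7.01, 7.04, 7.08 and 6.95 against 6.96, 6.89, 6.98, 7.03 and 6.89. Its log2 difference of 0.07 is one that RMA shrinks at such signals, and the genotypes overlapped. Bag1 had a log2 difference of 0.08 ± 0.05 (SE).

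Hsf2, a heat shock factor active in development and in proteasome stress, had log2 signals of 8.56, 8.58, 8.57, 8.78 and 8.63 in Ts65Dn mice and 8.27, 8.53, 8.61, 8.48 and 8.63 in controls. Ts65Dn mouse 4 was the highest of all 10 mice and control mouse 1 the lowest. The log2 difference was 0.12 ± 0.07 (SE; unadjusted p = 0.114, adjusted p = 1 by limma).

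Of the 4 small heat shock proteins, Hspb8, Hspb1 and Hspb6 had the largest standard errors of all 34 members (0.12 to 0.16). Hspb8 had log2 signals of 7.84, 8.08, 8.27, 8.63 and 7.78 in Ts65Dn mice and 7.55, 7.88, 7.35, 7.74 and 7.91 in controls. Ts65Dn mice 2, 3 and 4 lay above all controls, and Ts65Dn mice 1 and 5 lay among them. The log2 difference was 0.43 ± 0.16 (SE), with an unadjusted p of 0.0204 and an adjusted p of 1 by limma. Without control mouse 3, the lowest, it was 0.35 (unadjusted p = 0.0544 by limma), and without Ts65Dn mouse 4, the highest, 0.31 (unadjusted p = 0.0423).

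Cryab, alpha-B crystallin, which glia express strongly, had log2 signals of 11.46, 11.54, 11.26, 11.32 and 11.43 in Ts65Dn mice and 11.45, 11.41, 11.38, 11.20 and 11.10 in controls. The 2 lowest mice were controls 4 and 5, and the others were mixed; the log2 difference was 0.09 ± 0.08 (SE). Hspb1 (Hsp27) had a log2 difference of 0.10 ± 0.14 (SE) over signals from 7.51 in control mouse 4 to 8.21 in Ts65Dn mouse 4. Hspb6, another partner of Bag3, had one of -0.02 ± 0.12 (SE), with Ts65Dn mouse 2 the highest at 8.70.

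**Figure D2:**
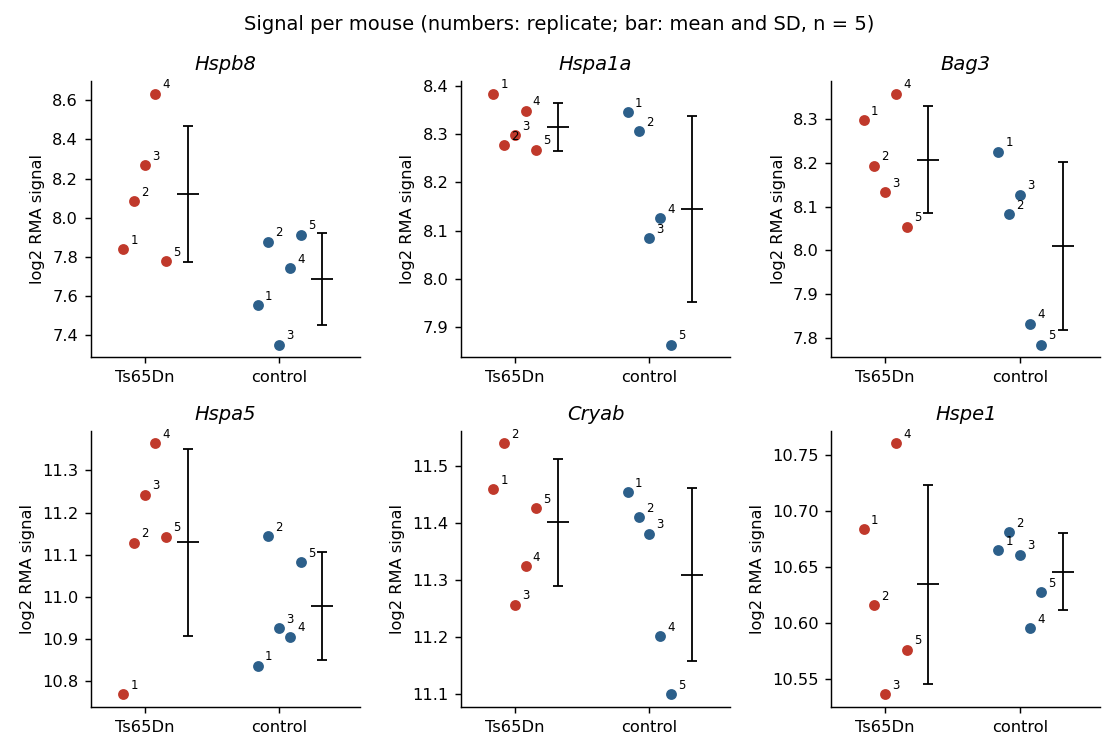
Log2 RMA signal (vertical axis, a separate range in each panel) of 6 chaperone genes in each mouse, numbered by replicate, with the mean and SD of each genotype (n = 5). The genotypes overlap in every panel, and Ts65Dn mouse 4 is the highest mouse for Hspb8, Bag3, Hspa5 and Hspe1.

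In the endoplasmic reticulum, Hspa5 (BiP, the Hsp70 that keeps the stress sensors inactive) had the largest difference. Its log2 signal was 10.77, 11.13, 11.24, 11.36 and 11.14 in Ts65Dn mice and 10.84, 11.14, 10.93, 10.91 and 11.08 in controls. Ts65Dn mouse 4 was the highest and Ts65Dn mouse 1 the lowest of all 10, so the spread within Ts65Dn exceeded the difference. The log2 difference was 0.15 ± 0.10 (SE; unadjusted p = 0.163, adjusted p = 1 by limma). It was 0.09 without Ts65Dn mouse 4, 0.24 without Ts65Dn mouse 1 and 0.10 with arrays weighted by their quality.

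Xbp1, the transcription factor that is spliced on the unfolded protein response, had log2 signals of 10.93, 10.94, 11.03, 11.11 and 10.94 in Ts65Dn mice and 11.02, 10.98, 10.88, 10.81 and 10.89 in controls. Control mice 1 and 2 lay within the range of the Ts65Dn mice and the other controls below it; splicing was not measured. Pdia4, a disulfide isomerase, Calr, which folds glycoproteins, and Hsp90b1 (Grp94) had log2 differences of 0.08, 0.08 and 0.04. All 3 were highest in Ts65Dn mouse 4 and, among controls, in control mouse 2. Ddit3 (CHOP), which the unfolded protein response raises when stress persists, had a log2 difference of -0.01 ± 0.03 (SE) and signals between 7.94 and 8.07 in all 10 mice.

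The 3 mitochondrial chaperones differed little, and all had a slightly lower mean in Ts65Dn. Hspa9 (mortalin, the mitochondrial Hsp70) had log2 signals of 11.11, 11.13, 11.16, 11.22 and 11.34 in Ts65Dn mice and 11.09, 11.22, 11.21, 11.23 and 11.39 in controls. Hspe1, the lid of the chaperonin, had log2 signals of 10.68, 10.62, 10.54, 10.76 and 10.58 against 10.67, 10.68, 10.66, 10.60 and 10.63. The mice of both genotypes were mixed throughout, and the log2 differences were -0.03 ± 0.06 (SE) and -0.01 ± 0.05 (SE). Hspd1, the chaperonin itself, had one of -0.01 ± 0.08 (SE), with control mouse 2 the highest and control mouse 1 the lowest of all 10 mice.

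Averaged over the members of a class in each mouse, the log2 signal was 10.03 ± 0.07 (SD, n = 5) in Ts65Dn and 9.96 ± 0.06 in controls over all 34 genes, a difference of 0.07. It was 9.97 ± 0.06 against 9.91 ± 0.05 for the cytosolic genes and 8.95 ± 0.15 against 8.80 ± 0.12 for the small heat shock proteins. It was 10.57 ± 0.13 against 10.50 ± 0.07 for the endoplasmic reticulum and 10.76 ± 0.06 against 10.78 ± 0.07 for the mitochondrial genes. The genotypes overlapped in every class. Over all 34 genes Ts65Dn mouse 4 had the highest mean (10.15) and control mouse 2 the next (10.06), while the other Ts65Dn mice lay between 9.97 and 10.02 and the other controls between 9.92 and 9.96. The classes were given no p, since their members were chosen with results of these data known.

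Single mice carried part of these differences. Without Ts65Dn mouse 4 the difference of the class means fell to 0.04 over all genes, to 0.03 for the cytosolic genes and to 0.02 for the endoplasmic reticulum, where it was 0.11 without Ts65Dn mouse 1. For the mitochondrial genes it lay between -0.05 without control mouse 1 and 0.00 without control mouse 2. With the median over members in place of the mean, the small heat shock proteins differed by 0.09 in place of 0.15 and the endoplasmic reticulum genes by 0.11 in place of 0.07.

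**Figure D3:**
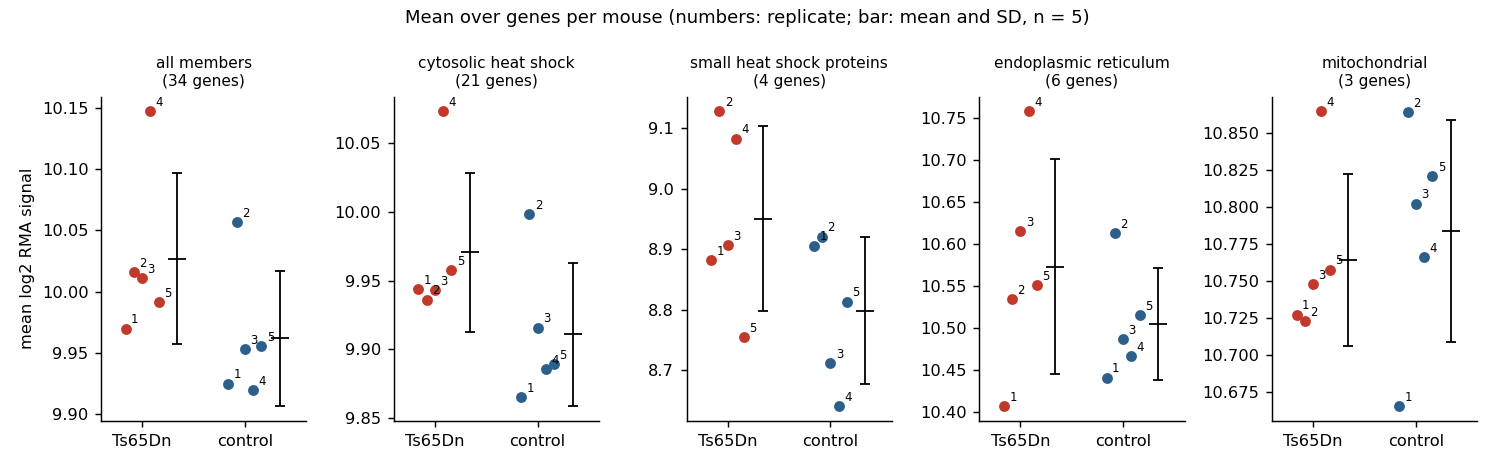
Mean log2 RMA signal over the genes of each class (vertical axis, a separate range in each panel) per mouse, numbered by replicate, with the mean and SD of each genotype (n = 5). Ts65Dn mouse 4 and control mouse 2 are the top mice of their genotypes over all 34 genes, at 10.15 and 10.06, and the genotypes overlap in every panel.

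The same mice stood out gene by gene. Ts65Dn mouse 4 was the highest of the 10 mice for 20 of 34 members (58.8%), against 12.4% of all genes and 18.2% of the genes above the median signal. It was above the gene's own mean for 28 of 34 members, with a median deviation of 0.14 on the log2 scale, where its median deviation over all genes was -0.02. Among controls, control mouse 2 was the highest for 20 of 34 members (58.8%), with a median deviation of 0.07. The shares were 15.7% of all genes and 19.1% of the genes above the median signal. Control mouse 1 was the lowest of the 10 mice for 15 members (44.1%), with a median deviation of -0.12. For this mouse the shares were 10.8% of all genes and 16.7% of the genes above the median signal. Without Ts65Dn mouse 4, 23 of 34 members had a higher mean in Ts65Dn and the median log2 difference was 0.02; without control mouse 4 the median was 0.03, and without both Ts65Dn mouse 4 and control mouse 2 it was 0.04 with 29 of 34 higher.

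Genes with and without the heat shock pair were set side by side. Among the measured members with a promoter in the table, the 9 with an inverted pair had a median log2 difference of 0.04 (6 of 9 higher in Ts65Dn, from -0.02 to 0.17), and the 21 without it one of 0.05 (19 of 21 higher, from -0.02 to 0.43). Hspb8 and Bag3, which had the largest differences, had no pair in the window, which says only that these letters are not in the 250 bases searched.

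**Figure D4:**
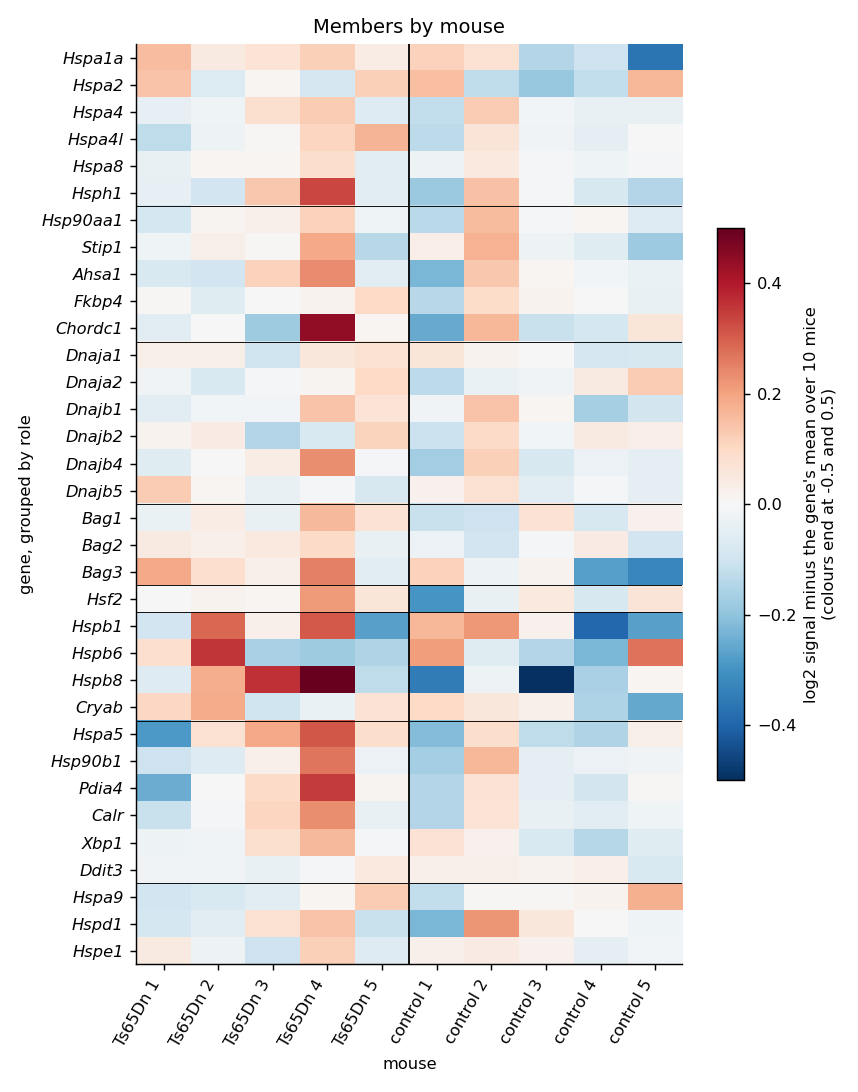
Log2 RMA signal of each member (rows, grouped by role) in each mouse (columns) minus the gene's mean over the 10 mice; red is higher, blue lower, and colours end at -0.5 and 0.5. The column of Ts65Dn mouse 4 is mostly red (28 of 34 genes above their mean), as is that of control mouse 2 (26 of 34), and blue dominates in control mouse 4 (26 of 34 below).

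Markers of hippocampal neurons were bright in all mice (mean log2 signal of 8 genes between 11.69 and 11.83), and all 8 were above the median signal. One of them, Wfs1, a marker of CA1 neurons that encodes a membrane protein of the endoplasmic reticulum, was lower in every Ts65Dn mouse (10.34 to 10.73) than in every control (10.84 to 10.97). Its log2 difference was -0.35 ± 0.07 (SE; unadjusted p = 0.000324, adjusted p = 0.0925 by limma), and those of the other 7 lay between -0.03 and 0.09. Choroid plexus markers, from the tissue that lines the neighbouring ventricle, ranged from 7.00 in Ts65Dn mouse 3 to 9.48 in Ts65Dn mouse 2 as a mean of 7 genes, with 8.98 in Ts65Dn mouse 4, 9.18 in control mouse 5 and 8.33 in control mouse 2. All 7 had a higher mean in Ts65Dn, and their summed log2 signal ran from 48.98 to 66.33 in Ts65Dn and from 49.33 to 64.29 in controls. Of these markers, Clic6 and Kcne2 lie in the extra segment of chromosome 16 and so are in 3 copies in Ts65Dn. They had the largest log2 differences of the list, 0.66 ± 0.78 and 0.39 ± 0.39 (SE). The others had 0.05 to 0.26, so the mean, the sum and the count include genes in 3 copies. The mean of the small heat shock proteins was 8.88, 9.13, 8.91, 9.08 and 8.75 in Ts65Dn mice 1 to 5. In control mice 1 to 5 it was 8.91, 8.92, 8.71, 8.64 and 8.81. The values of Hspb8 are given above, and a link with the choroid plexus signal was not tested. Microglial markers (mean of 7 genes) were highest in Ts65Dn mouse 4 at 9.11 and at most 8.92 in the others. By gene, Csf1r, Cx3cr1, C1qa and C1qb were highest of the 10 mice in Ts65Dn mouse 4. P2ry12 was lowest of the 10 mice there (8.18), and Tmem119 and Aif1 were highest in control mouse 1. Of the microglial markers, 6 of 7 had a higher mean in Ts65Dn. Their summed log2 signal was 61.67 to 63.80 in Ts65Dn and 61.38 to 62.43 in controls. Immediate early genes, which neuronal activity induces, had a mean over 12 genes of 7.72 to 7.96 in Ts65Dn mice. In control mice 1 to 5 it was 8.43, 8.39, 8.185, 8.002 and 7.70. Control mouse 5 lay below all Ts65Dn mice, and the other controls lay above them all. Of these genes, 1 of 12 had a higher mean in Ts65Dn. At unadjusted p 0.05 by limma, 4 of 12 were lower and 0 higher, against 1.56% and 1.76% of all genes. The rank method called all of these genes but Fosb and Ier2 as lower. Their summed log2 signal was 92.61 to 95.57 in Ts65Dn and 92.44 to 101.1 in controls. Of the oligodendrocyte markers, 0 of 7 had a higher mean in Ts65Dn. Their mean was lowest of the 10 mice in Ts65Dn mouse 3 and highest in Ts65Dn mouse 5 at 11.57. Their summed log2 signal was 76.998 to 81.01 in Ts65Dn and 79.09 to 80.13 in controls. The mean was higher in Ts65Dn for 4 of 8 astrocyte and 6 of 7 endothelial markers. It was higher for 2 of 8 mural, 4 of 8 fibroblast and 3 of 6 ependymal markers. No gene of these lists passed adjusted p 0.05 by limma, and the part of these cells or states in the chaperone values was not tested.

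The wider set of 67 chaperone and protein quality control genes, written down for the same pathways, was fitted in the same way. Their median log2 difference was 0.01 and 40 of 67 (59.7%) were higher in Ts65Dn. None passed adjusted p 0.05 by limma, and 1 was past the unadjusted threshold. The 27 other genes of the endoplasmic reticulum had a median of 0.05 with 21 higher, close to the 6 members, and the 23 other cytosolic genes had one of 0.03 with 14 higher. The 11 other mitochondrial genes had a median of -0.04 with 3 higher, and the 6 other small heat shock proteins, all below the median signal, one of -0.04 with 2 higher. Ts65Dn mouse 4 was the highest mouse for 21 of 67 (31.3%).

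The gene past the unadjusted threshold was Dnajc28, a J protein of unsettled role and the one gene of the 67 in the extra segments (chr16:91614257-91618999). Its log2 signal was 7.54, 7.48, 7.34, 7.86 and 7.41 in Ts65Dn mice and 7.09, 7.18, 7.05, 7.05 and 7.03 in controls. Its mean log2 signal of 7.30 was below the median signal of 7.40, and RMA shrinks differences at such signals. All Ts65Dn mice lay above all controls. It was 1.36-fold higher (95% interval 1.20 to 1.55; adjusted p = 0.0647 by limma), and over the alternative limma fits the adjusted p ran from 0.0163 without Ts65Dn mouse 4 to 0.209 without control mouse 3. Hspa13 and Cryaa, whose human counterparts are on chromosome 21 but which lie outside the extra segments, had log2 differences of 0.05 ± 0.07 and -0.02 ± 0.08 (SE).

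The next 5 genes of the wider set by p-value were named. Dnaja4, a J protein, had a log2 difference of 0.15 ± 0.08 (SE), from 8.95 in control mouse 5 to 9.49 in Ts65Dn mouse 4. Hyou1, the exchange factor of Hspa5, and Sel1l, which works in the degradation of misfolded proteins of the endoplasmic reticulum, had differences of 0.10 each. Hsf4, a heat shock factor of the lens, and Grpel2, an exchange factor of mitochondrial Hsp70, had differences of -0.10 and -0.09. All 5 had an adjusted p of 1. The rank method called Dnajc28, Dnaja4 and Pdia6 (a disulfide isomerase, log2 difference 0.20) as higher in Ts65Dn (4.48% of the 67, against 2.9% of all genes), and Dnajc28 is the one in 3 copies.

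**Figure D5:**
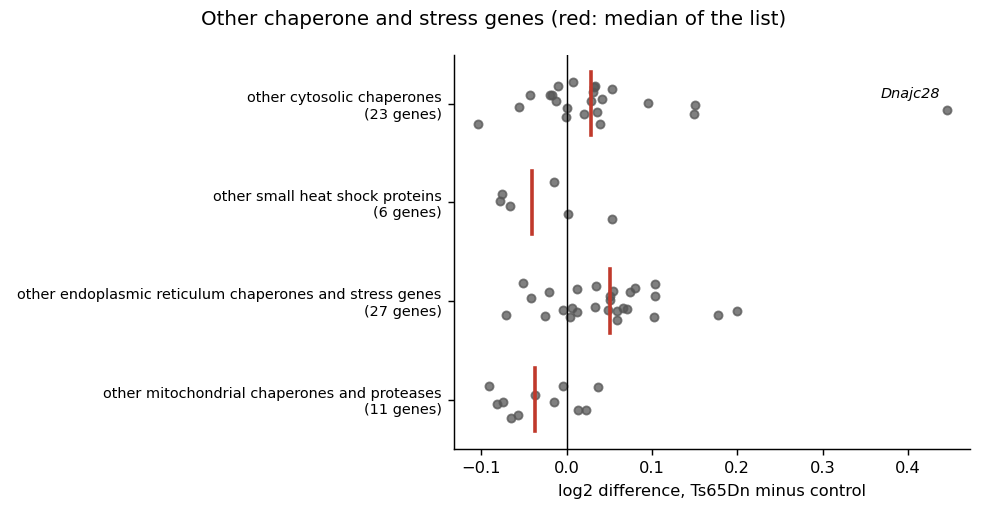
Log2 difference (Ts65Dn minus control, horizontal axis) of the 67 other chaperone and protein quality control genes by list; each point is a gene, spread vertically for legibility, and red lines mark the median of each list. Dnajc28, in the extra segment of chromosome 16, stands apart at 0.45, and the medians lie between -0.04 and 0.05.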

How the data were processed

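The authors deposited a table of log2 signals, 1 column per mouse, computed with RMA. That procedure removes background, gives all arrays the same distribution and combines the probes of a transcript into 1 value. The submitters' notes name RMA, limma and mm10. RMA shrinks differences of dim genes, levels of different probe sets are not comparable between genes, and the number of arrays limits the precision. Genotypes were compared with limma 3.58.1 (lmFit and eBayes, genotype only, two-sided) in R 4.3.3 over 23410 rows with a gene symbol in the platform annotation, of 35556, with Benjamini-Hochberg adjustment; the fit was tested on simulated data. The rank method took the trimmed mean of each row's ranks over the pairs of mice, turned it into a probability under a normal distribution fitted to all rows, and called rows below 0.025 or above 0.975. A gene was represented by the row with the highest mean. For 5 members (Hspa8, Hsp90aa1, Dnaja1, Hspb1 and Hspd1) the neighbours of that row in identifier order are genes of another chromosome, so it may read a processed copy, and the row beside genes of the same chromosome was used as an alternative. Coordinates are those of the gene in GRCm38.p6. The ends of the extra segments were taken as Mrpl39 to Zbtb21 and Pisd-ps2 to Pde10a.

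The members and lists were chosen with earlier results of these data known. Per-mouse values are given for every member past unadjusted p 0.05 and for the 2 with the smallest p of each role. From the wider list the text names those in 3 copies, Hspa13, Cryaa and up to 6 with the smallest p. Hspa1b, Pdia6, the rows of several members and members not among these were named after their values were seen. Replicates are separate mice. Alternatives were other rows, filters, normalizations, variance models, the replicate number as a block and leaving out each mouse. Plots used matplotlib 3.10.9.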

Additional observations from a re-analysis of the deposited data

Results flagged for a closer look

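In groups of 5 mice, a mouse was taken as standing apart when its gap to the nearest of the others exceeded 0.71 of the range of its group, Dixon's critical value. This held in 8 of 64 groups tested, where chance gives about 1 in 20, and the groups share genes and mice. Ts65Dn mouse 4 stood above the other Ts65Dn mice in the mean over all members (0.739 of the range), the cytosolic genes (0.843), the Hsp90 group (0.839), the mitochondrial genes (0.754) and in Hsf2 (0.713). Control mouse 2 stood above the other controls in the mean over all members (0.738) and over the cytosolic Hsp70 and Hsp110 genes (0.713). Control mouse 5 stood below the other controls in Dnaja4 (0.733).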

How the results depend on the processing

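No member passed adjusted p 0.05 in any limma fit run, nor adjusted p 0.1, and none separated the genotypes under any setting; the rank method called 4 members and 3 of the wider set. The number of members past unadjusted p 0.05 was 1 and became 2 with rows of exactly 1 symbol, cyclic loess, a trended and robust variance, array weights, or the mean of all rows of a gene, 3 with arrays centred on their median, and 2 without Ts65Dn mouse 4 and control mouse 2, an alternative chosen after seeing the data. With the replicate number as a block it was 3 (Hspa1a, Bag3 and Hspb8). The share of all genes past unadjusted p 0.05 is given for the main fit only (1.76% higher, 1.56% lower). The counts under the other fits, and on leaving out mice, are therefore not read as a result about the members. The unadjusted p by limma under the block was 0.0297 for Hspa1a and 0.0306 for Bag3. Of the named genes of the wider set, Dnaja4 also passed that threshold (unadjusted p = 0.0342 by limma, against 0.0867); no call at adjusted p 0.05 changed among members or the wider set. Same-numbered mice correlated in their deviations by 0.51, 0.27, 0.32, 0.03 and 0.46, and 7 of 10 mice correlated best with their own number, a hint of pairing that the labels do not state; the pairs were not used, because a correlation over 0.1 in every pair was required. Leaving out 1 mouse at a time gave 1 to 3 members past unadjusted p 0.05; Hspb8 was among them except without control mouse 3. In the wider set 0 genes were called, and 1, Dnajc28, with arrays centred (1), a trended and robust variance (1), array weights (1) and without both named mice (1); leaving out 1 mouse gave 0 to 1. Its adjusted p by limma was 0.109 with the replicate block, 0.118 with all rows tested, and 0.0163 to 0.209 on leaving out 1 mouse. Log2 differences near 0 changed sign. With array weights that of Ahsa1 was -0.00213 and that of Cryaa 0.0252, and without both named mice that of Cryaa was 0.0530. Leaving out 1 mouse gave -0.00224 to 0.0912 for Ahsa1 and -0.0103 to 0.145 for Chordc1 (both lowest without Ts65Dn mouse 4), -0.0429 to 0.0131 for Hspe1 (above 0 without Ts65Dn mouse 3 or 5), -0.0708 to 0.00511 for Hspa9 (above 0 without control mouse 5), -0.00256 to 0.0943 for Hspa13 (below 0 without control mouse 1) and -0.0505 to 0.0593 for Cryaa (above 0 without Ts65Dn mouse 4 or control mouse 1 or 4). The cause was not tested. With the rows beside genes of the same chromosome, chosen after seeing the data, 28 of 34 members were higher in Ts65Dn, with a median log2 difference of 0.06. The median over members was 0.03 with array weights.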
